A study of Mus musculus with 2 samples.

Results

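Described here are 7 genes used as markers of alternatively activated macrophages: Il4ra, Pparg, Mrc1, Clec10a, Mgl2, Chil3 and Retnla. They were picked by gene symbol, each symbol matched 1 gene of the annotation, and together they are 7 of 55536 annotated genes and 33 of 141862 annotated transcripts. The data are total RNA-seq libraries, depleted of ribosomal RNA, from the cytosol of primary macrophages grown from bone marrow of C57BL/6J mice. The cells carried no stated genetic change and all had the same treatment: 100 ng/ml lipid A for 12 h, a washout of 12 h, and 100 ng/ml lipid A again for 75 min. Lipid A is the part of bacterial lipopolysaccharide that activates Toll-like receptor 4. The group holds 2 biological replicates, whose labels carry the same donor code, and nothing says whether they came from separate animals. No library of untreated or IL-4-treated cells was analysed here, so the levels describe this state and measure no response to lipid A or to a cytokine.

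Macrophages that meet interleukin-4 or interleukin-13 take on a state known as alternative activation, set apart from the inflammatory state that lipopolysaccharide evokes. Both cytokines signal through receptors that contain the chain encoded by Il4ra, and the transcription factor STAT6 then switches on genes for lectin receptors (Mrc1, Clec10a, Mgl2), for secreted proteins (Chil3, Retnla) and for the lipid-sensing nuclear receptor PPARγ (Pparg). The same genes are widely read as markers of this state in mouse, where Chil3 is also called Ym1, Retnla Fizz1 or RELMα, and the protein of Mrc1 CD206.

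The 7 genes spread from no count to 38.6 TPM, and none reached 100 TPM, the level from which a message was called high. TPM is a share of all features, so it depends on them: rescaled to protein-coding genes alone, Il4ra had 69.1 TPM in replicate 1 and 147 TPM in replicate 2. Levels are given in TPM, a share of all transcripts corrected for length, so that genes can be compared on it, and detection required 1 TPM or more in each replicate. By that rule 5 of the 7 genes (71.4%) were detected, against 16.7% of all annotated genes and 40.0% of protein-coding genes. Il4ra and Mrc1 were at moderate levels (10 to under 100 TPM in both replicates), Pparg, Clec10a and Chil3 were low (1 to under 10), and Mgl2 and Retnla were not detected. The median of the 7 was 2.29 TPM in replicate 1 and 2.76 TPM in replicate 2, and the median over all 9302 detected genes was 7.82 and 7.17 TPM. On the log2(TPM + 0.1) scale the median of the 7 genes minus that of detected genes was -1.73 in replicate 1 and -1.35 in replicate 2, with a mean of -1.54 ± 0.27 (SD, n = 2). That difference sets all 7 genes against detected ones: over the detected markers alone it was -0.40, and the median of all protein-coding genes, 0.12 TPM in replicate 1 and 0.11 TPM in replicate 2, lay below that of the markers. In such bulk libraries fewer cells with a message and less message per cell cannot be told apart.

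**Figure D1:**
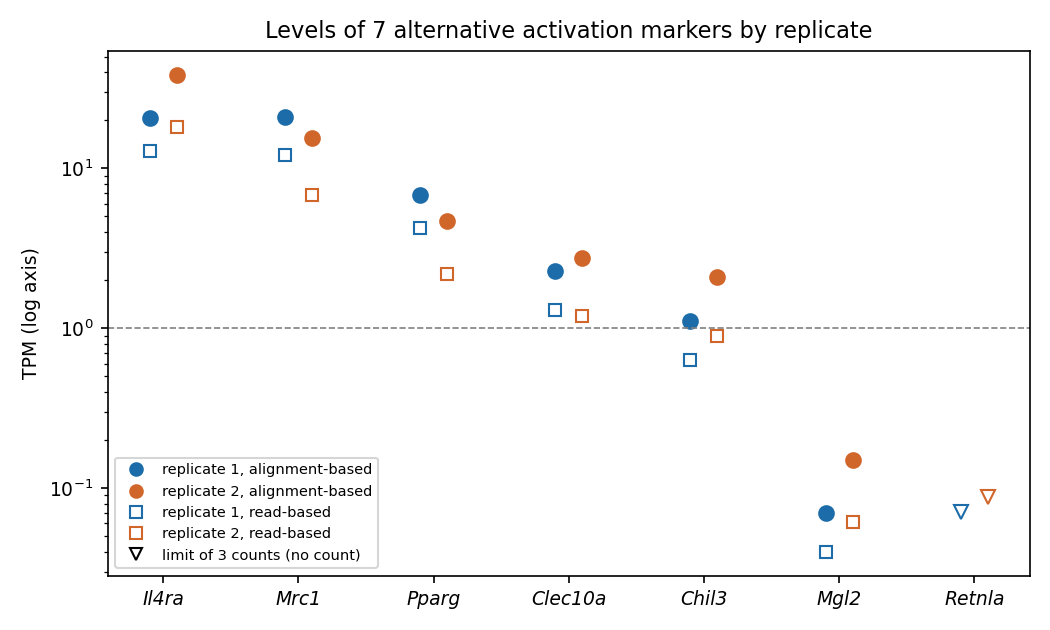
TPM (log axis) of the 7 genes, 1 point per replicate; filled circles come from the alignment-based gene table, open squares from the read-based table, and triangles mark the level that 3 counts would give where a gene had none. The dashed line is the detection threshold of 1 TPM; Il4ra and Mrc1 lie highest, Mgl2 lies below 1 TPM in both replicates and tables, and Retnla had no count.

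In order of mean level the genes ran Il4ra (29.6 ± 12.7 TPM, SD, n = 2, as for the following), Mrc1 (18.2 ± 3.86), Pparg (5.75 ± 1.5), Clec10a (2.52 ± 0.332), Chil3 (1.60 ± 0.693), Mgl2 (0.11 ± 0.0566) and Retnla, which had no count. Il4ra and Mrc1 cannot be ordered in the alignment-based table: their replicate ranges overlapped, and Mrc1 was the higher of the pair in replicate 1. The other neighbours in the order did not overlap between replicates. The read-based table gave the same order in replicates' means and lower TPM for each detected gene. There Il4ra lay above Mrc1 in both libraries, at 12.9 against 12.1 TPM in replicate 1 and 18.2 against 6.81 TPM in replicate 2.

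Il4ra (ENSMUSG00000030748.9; mm10 chr7:125552120-125579474, plus strand) encodes the alpha chain shared by the receptors for IL-4 and IL-13. It had 20.7 TPM in replicate 1 and 38.6 TPM in replicate 2, from 9587 and 14698 counts. Replicate 2 was the higher library, and Il4ra exceeded 76.3% of detected genes in replicate 1 and 87.9% in replicate 2. An annotated antisense gene on the opposite strand, Gm44876, had 0 and 0.03 TPM in replicates 1 and 2. Whether strand was used in counting is not given, so reads from overlapping exons of opposite strands cannot be told apart here.

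The Il4ra message came as a mixture of a pair of transcripts that differ in whether they encode the whole receptor. Il4ra-201 has 11 exons and codes for the full-length chain in 2430 coding bases. Il4ra-205 has 12 exons: an additional exon 8 of 114 bases (mm10 chr7:125571934-125572047) brings 17 coding bases and then a stop codon, so that its reading frame ends after 690 bases, 28.4% of that of Il4ra-201. The annotation gives Il4ra-205 the biotype of a target of nonsense-mediated decay, the pathway that destroys messages with early stop codons. In mouse, a soluble IL-4 receptor alpha that lacks the membrane-spanning segment is known to be made from an alternatively spliced message. The sequences below show the point at which both transcripts part: the same upstream exon in lower case, then in capitals the following exon, which for Il4ra-205 is shown up to its stop codon (the last 3 bases).
Il4ra-205 junction: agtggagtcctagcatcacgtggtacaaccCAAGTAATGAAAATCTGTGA
Il4ra-201 junction: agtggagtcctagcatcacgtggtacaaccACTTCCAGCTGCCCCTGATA

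**Figure D2:**
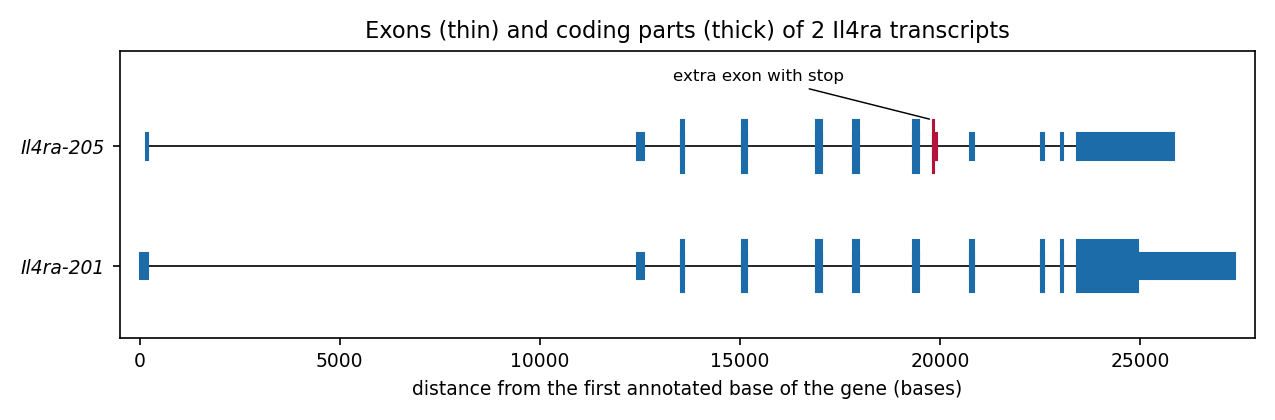
Exons (thin boxes) and coding parts (thick boxes) of Il4ra-205 (top) and Il4ra-201 (bottom), to scale, with distance in bases from the first annotated base of the gene on the horizontal axis and introns as lines. The extra exon of Il4ra-205, in red, holds its stop codon, after which the exons it shares with Il4ra-201 are noncoding.

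Il4ra-205 was the leading transcript of the gene by TPM in each library and each table. In the alignment-based table it held 52.1% of the gene's TPM in replicate 1 and 55.9% in replicate 2 (54.0 ± 2.69%, SD, n = 2), and Il4ra-201 held 45.9% and 43.5%. In the read-based table Il4ra-205 held 78.7% and 81.3% (80.0 ± 1.84%), and Il4ra-201 held 18.5% and 17.4%. The replicates thus lay closer together than the tables did, and the reason for the gap between tables was not tested. By counts, which a longer transcript collects more of, Il4ra-201 led in the alignment-based table with 55.9% in replicate 1 and 53.0% in replicate 2, whereas Il4ra-205 led in the read-based table with 74.3% and 76.2%. What separates the pair in sequence is unequal: Il4ra-205 has 114 bases that Il4ra-201 lacks, while Il4ra-201 has 1674 bases that Il4ra-205 lacks, 167 in its first exon and 1507 at the end of its last. A transcript of the nonsense-mediated decay class led by TPM in both replicates and both tables in 99 of 8807 detected protein-coding genes (1.12%), and in the alignment-based table alone in 132 (1.5%). Il4ra was thus in a small class, but the rank of its transcripts depended on the table and on the unit.

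The cytokines that Il4ra serves were barely measured, while the chains and signalling proteins around it were present. Of IL-4 and IL-13 neither was detected. Il13 had no count, and Il4 had 8 counts in replicate 1 and none in replicate 2 in the alignment-based table, against 43 and 31 counts in the read-based table, a gap whose reason was not tested. Of 11 receptor chains and signalling genes 10 (90.9%) were detected, with a median of 14.8 TPM in replicate 1 and 18.5 TPM in replicate 2. The highest was Il2rg, the common gamma chain that pairs with Il4ra, at 116 and 115 TPM in replicates 1 and 2. Ptpn6, the phosphatase SHP-1, had 92.1 and 102 TPM, and the kinase gene Jak1 had 30.6 and 31 TPM. Stat6, which encodes the factor that carries the signal to the nucleus, had 30.6 TPM in replicate 1 and 29.1 TPM in replicate 2. At the low end, Il13ra1, the partner chain for IL-13, had 1.60 and 1.04 TPM, and Socs1, a feedback inhibitor of these kinases, had 1.54 and 1.34 TPM. Il13ra2, which encodes a decoy receptor for IL-13, was the gene not detected, with 1 count in replicate 1 and none in replicate 2.

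Pparg (ENSMUSG00000000440.12; mm10 chr6:115360951-115490399, plus strand) encodes PPARγ, a nuclear receptor that binds fatty acids and drives lipid-handling genes in partnership with RXR. It had 6.81 TPM in replicate 1 and 4.69 TPM in replicate 2, from 1367 and 751 counts. Replicate 1 was the higher library, and Pparg exceeded 45.7% and 36.8% of detected genes in replicates 1 and 2. The antisense gene Gm44079 at this locus had no count in either library.

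Pparg is transcribed from several start sites, and the 3 transcripts annotated with a complete reading frame code for 2 forms of the protein. Pparg-202 and Pparg-204 have different first exons, which begin at positions 115360951 and 115362292 of chromosome 6, and share their start codon and their 1425 coding bases. Pparg-201 begins at position 115422066 and adds 30 codons at the amino-terminal end, for 1515 coding bases; this longer form is known above all from fat cells. The starts of both reading frames show the relation, with start codons in capitals; the last stretch of the longer sequence is the shorter one.
Pparg-201 start: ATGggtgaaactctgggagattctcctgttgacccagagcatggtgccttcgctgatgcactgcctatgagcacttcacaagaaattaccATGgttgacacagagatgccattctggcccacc
Pparg-202 start: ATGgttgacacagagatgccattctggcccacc

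Most Pparg message was of the shorter coding form. Pparg-202 and Pparg-204 together held 90.3% of the gene's TPM in replicate 1 and 93.6% in replicate 2 in the alignment-based table, and 85.6% and 78.3% in the read-based table. Pparg-201 held 9.77% and 6.48% in the alignment-based table and 3.73% and 13.7% in the read-based table, so that the tables gave opposite directions between replicates. Pparg-202 led in each library and table, with 63.3% and 47.6% in the alignment-based table and 78.4% and 72.7% in the read-based table for replicates 1 and 2. Pparg-206 and Pparg-207, protein-coding transcripts annotated without a stop codon that carry the start codon of the shorter form, had no TPM in the alignment-based table; in the read-based table Pparg-206 held 8.87% and 5.01% and Pparg-207 held 0.686% and 2.29%. How the shorter form divided between its start sites was less settled, since Pparg-204 held 27% and 46.0% in the alignment-based table but 7.18% and 5.58% in the read-based table. In replicate 2 the alignment-based table thus placed Pparg-202 and Pparg-204 nearly level.

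**Figure D3:**
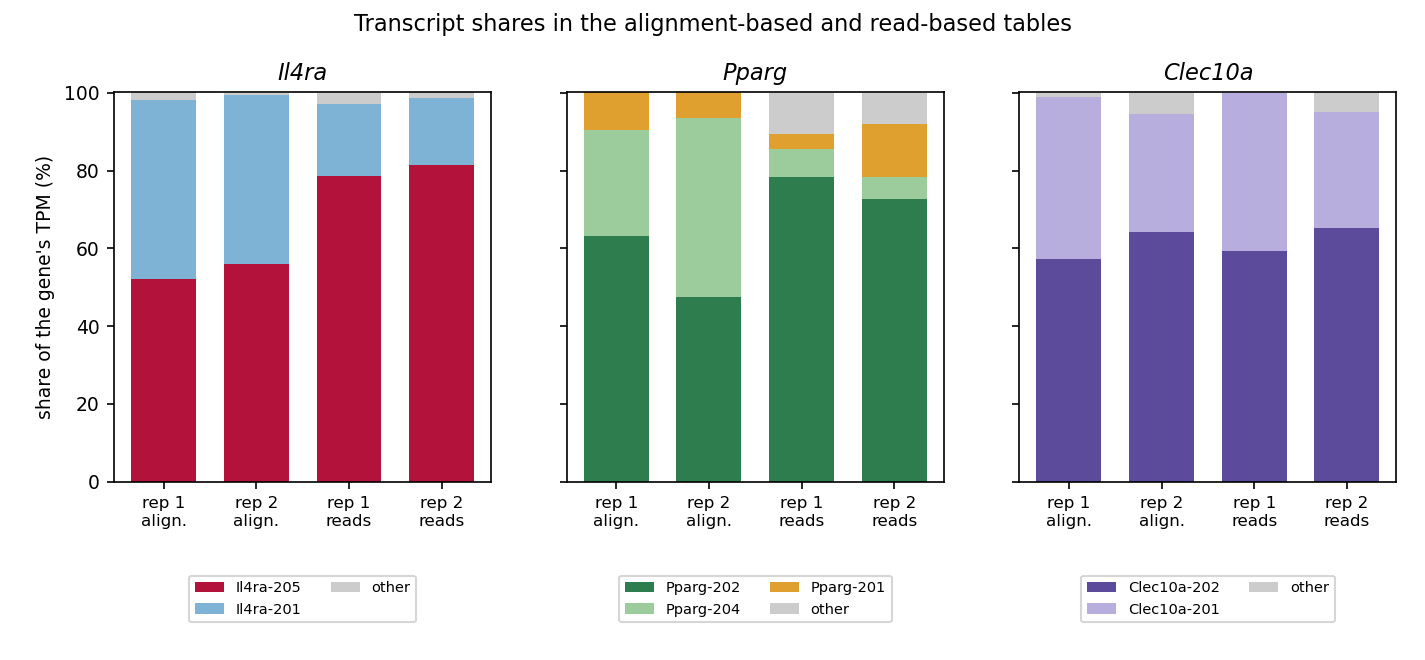
Share of each gene's TPM (%) in its transcripts for Il4ra, Pparg and Clec10a, with replicates 1 and 2 of the alignment-based table (align.) and then of the read-based table (reads). Il4ra-205 leads in all 4 columns and holds more in the read-based table; Pparg-204 holds more in the alignment-based table; the Clec10a shares are close between tables.

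Genes that work with PPARγ and genes it is known to activate were mostly present. Of 11 partners and coregulators 8 (72.7%) were detected, with a median of 7.45 TPM in replicate 1 and 8.40 TPM in replicate 2. The corepressor gene Ncor1 was the highest, at 44.7 TPM in replicate 1 and 41.2 TPM in replicate 2. Med1, a Mediator subunit that nuclear receptors recruit, had 10.5 and 11.4 TPM. Rxra, the dimer partner of PPARγ, had 10.3 TPM in replicate 1 and 11.2 TPM in replicate 2, above Pparg in both. Ppara, a relative of Pparg, had no count, and Ppargc1a, a coactivator gene, had 4 counts in replicate 1 and none in replicate 2. Of 12 PPARγ target genes 10 (83.3%) were detected, with a median of 42.3 TPM in replicate 1 and 34.0 TPM in replicate 2. Plin2, which encodes a coat protein of lipid droplets, had 201 and 129 TPM, and Lpl, lipoprotein lipase, had 97.7 and 95.2 TPM. Hmox1, haem oxygenase, had 79.8 and 101 TPM, and Abca1, a cholesterol exporter, had 58.4 and 70.9 TPM. Pdk4 and Angptl4, both regulators of fuel use, were the lowest: Pdk4 had 1 count in replicate 1 and none in replicate 2, and Angptl4 had 0.02 and 0.05 TPM. All of these targets also answer to other factors, and no value here ties their level to Pparg.

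Mrc1 (ENSMUSG00000026712.3; mm10 chr2:14229392-14332057, plus strand) encodes the macrophage mannose receptor, which takes up glycoproteins and microbes. It had 20.9 TPM in replicate 1 and 15.4 TPM in replicate 2, from 12077 and 7302 counts. Replicate 1 was the higher library, and Mrc1 exceeded 76.5% and 72.0% of detected genes in replicates 1 and 2. The protein-coding transcript Mrc1-201 held 99.8% and 99.3% of its TPM in replicates 1 and 2. The microRNA gene Mir511, which lies inside Mrc1 on the same strand, had no count in either library.

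Clec10a and Mgl2 are neighbouring genes on chromosome 11 that encode the galactose-type lectins MGL1 and MGL2, receptors for glycans on dendritic cells and macrophages. Clec10a (ENSMUSG00000000318.16; mm10 chr11:70156197-70170834, plus strand) had 2.29 TPM in replicate 1 and 2.76 TPM in replicate 2, from 321 and 304 counts. Mgl2 (ENSMUSG00000040950.13; mm10 chr11:70130329-70137550, plus strand) had 0.07 TPM in replicate 1 and 0.15 TPM in replicate 2, from 5 and 19 counts. Clec10a was detected in both libraries and Mgl2 in neither. On the log2(TPM + 0.1) scale Clec10a lay above Mgl2 by 3.81 in replicate 1 and by 3.52 in replicate 2 (3.66 ± 0.21, SD, n = 2), a difference larger than the spread between replicates. Its size depends on the added 0.1, which is close to the level of Mgl2: with 1 added it was 1.66. The 5 counts of Mgl2 in replicate 1 are close to the limit of 3 counts, which corresponds to 0.0415 TPM there.

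The closeness of the 2 lectin genes limits how surely reads can be divided between them. The coding sequences of Clec10a-202 and Mgl2-205 were identical at 92.2% of 910 aligned bases. Of the 31-base words of Clec10a-202, 24.7% also occurred in another gene, and no gene shared more of them than Mgl2. Levels of both are therefore uncertain to the extent that shared reads were divided between them. The stretches below, coding bases 58 to 117 of Clec10a-202 and 109 to 168 of Mgl2-205, show such a region, with the 2 differing bases in capitals.
Clec10a-202 coding: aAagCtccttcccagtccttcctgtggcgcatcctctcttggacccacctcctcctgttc
Mgl2-205 coding: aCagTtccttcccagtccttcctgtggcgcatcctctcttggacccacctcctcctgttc

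Clec10a was itself divided between a pair of transcripts that differ by a single codon at the start of exon 3. Clec10a-201 starts that exon at position 70168583 and Clec10a-202 at position 70168586 of chromosome 11, which gives 915 and 912 coding bases. The 3 additional bases are in capitals below.
Clec10a-201 junction: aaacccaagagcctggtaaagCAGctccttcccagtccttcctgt
Clec10a-202 junction: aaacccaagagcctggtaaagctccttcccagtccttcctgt

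Clec10a-202, without the codon, held 57.2% of the gene's TPM in replicate 1 and 64.3% in replicate 2 in the alignment-based table, and 59.3% and 65.2% in the read-based table. Clec10a-201 held 41.8% and 30.3% in the alignment-based table and 40.7% and 29.9% in the read-based table. For this gene the tables lay closer together than the replicates did, though the shares rest on 321 and 304 counts. Over detected protein-coding genes with more than 1 transcript, 6905 of 8190 (84.3%) had the same leading transcript by TPM in both replicates and both tables, and so did all 5 detected markers.

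Chil3 (ENSMUSG00000040809.10; mm10 chr3:106147554-106167564, minus strand) encodes Ym1, a secreted chitinase-like lectin without chitinase activity. It had 1.11 TPM in replicate 1 and 2.09 TPM in replicate 2, from 164 and 252 counts. Replicate 2 was the higher library, and in replicate 1 Chil3 lay just above the threshold, over 0.785% of detected genes there and 13.6% in replicate 2. All its counts were given to Chil3-201. In the read-based table Chil3 had 0.632 and 0.897 TPM in replicates 1 and 2, below the threshold in both. Chil3 has a near-identical neighbour in mouse, Chil4, with 95.4% identity over 1194 aligned coding bases. Of the 31-base words of Chil3-201, 44.8% also occurred in another gene, and no gene shared more of them than Chil4. Chil4 had no count in either library, so all reads that could be divided between them went to Chil3. The opening 60 coding bases of the 2 genes differ at 1 base, in capitals.
Chil3-201 coding: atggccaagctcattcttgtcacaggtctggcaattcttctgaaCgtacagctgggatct
Chil4-201 coding: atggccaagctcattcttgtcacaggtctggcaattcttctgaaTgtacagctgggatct

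Of 6 neutrophil markers 3 (S100a8, S100a9 and Ngp) were lower in replicate 1, as was Chil3, a gene that neutrophils and their precursors are also known to make; the other 3 were at 0.02 TPM or less in both. Of these 6 markers 2 were detected: S100a8 had 2.21 TPM in replicate 1 and 4.35 TPM in replicate 2, and S100a9 had 3.14 and 7.31 TPM. The 6 markers summed to 5.59 TPM in replicate 1 and 12.4 TPM in replicate 2, and Ly6g, a defining marker of mature neutrophils, had no count. The part of such cells in the Chil3 level was not tested.

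Retnla (ENSMUSG00000061100.4; mm10 chr16:48842551-48844461, plus strand) encodes RELMα, a secreted cysteine-rich protein. It had 0 counts in both libraries and in both kinds of table. At these depths a count of 0 allows up to 3 counts, which for Retnla is 0.0707 TPM in replicate 1 and 0.0882 TPM in replicate 2. These limits cover counting error only. A related gene, Retnlg, is identical to Retnla at 83.5% of 351 aligned coding bases, and 5.45% of the 31-base words of Retnla-201 occurred in another gene; Retnlg had no count either.

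Promoters were searched for the spaced palindromes to which STAT proteins bind, TTCNNNGAA and TTCNNNNGAA, the wider one being the form that STAT6 prefers. The RefSeq table of build GRCm38.p6 held 8 promoters for 6 of the 7 genes, each 250 bases before to 50 bases after a transcription start, and Clec10a is not among them. Each motif reads the same on both strands, so a match counts for both. TTCNNNNGAA was present in 6.95% of all 32851 promoters of that table and, among those of the markers, in that of Retnla, starting 145 bases upstream. TTCNNNGAA was present in 8.30% of all promoters and, among those of the markers, in that of Chil3, starting 172 bases upstream. The matches, in capitals, are shown for chr16:48842434-48842503 (plus strand) and chr3:106167698-106167766 (minus strand).
Retnla promoter: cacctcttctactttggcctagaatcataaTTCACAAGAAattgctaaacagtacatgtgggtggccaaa
Chil3 promoter: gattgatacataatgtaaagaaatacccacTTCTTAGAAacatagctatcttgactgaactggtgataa

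A match of these letters describes the sequence and shows no binding in these cells.

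Other genes known to respond to IL-4 in macrophages ranged from moderate levels to no count in a library. Of 20 such genes 7 (35.0%) were detected, beside 71.4% of the markers and 40.0% of protein-coding genes. Both lists were chosen with earlier results of these data known, so the gap between their shares says nothing about the markers as a class. Their median was 0.815 TPM in replicate 1 and 0.26 TPM in replicate 2. Tgm2, a transglutaminase, had 55.1 and 32 TPM in replicates 1 and 2. Stab1, a scavenger receptor, had 26.7 and 46.4 TPM, Cd200r1, an inhibitory receptor, had 25.1 and 22.5 TPM, and Kdm6b, a histone demethylase, had 24.1 and 18.0 TPM. At the low end, Arg1, the arginase that is a classical marker of the state in mouse, had no count in replicate 1 and 3 counts in replicate 2. Cdh1, the gene of E-cadherin, had no count in replicate 1 and 7 counts in replicate 2. Arg1 thus stood with Retnla and Mgl2 at the bottom, while Mrc1 and Il4ra stood with Tgm2, Stab1 and Cd200r1.

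**Figure D4:**
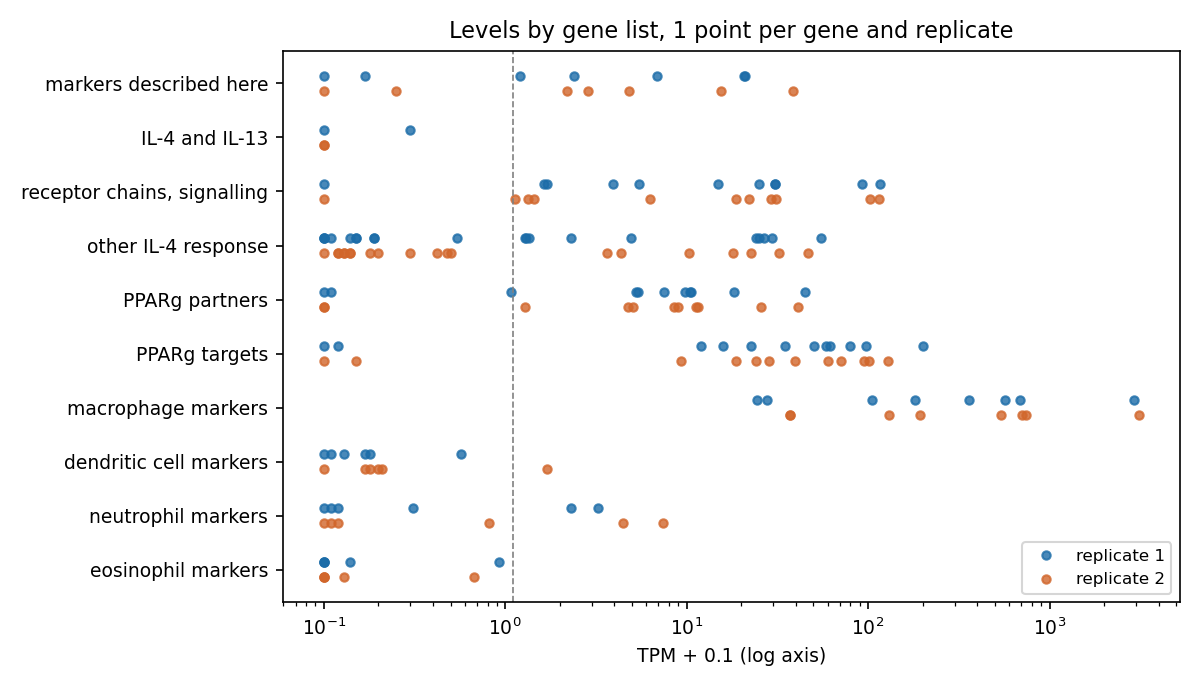
TPM + 0.1 (log axis) of each gene in 10 gene lists, with 1 point per gene for replicate 1 (blue, upper) and replicate 2 (orange, lower); the dashed line is at the detection threshold. The markers and the other IL-4 response genes spread from no count to above 10 TPM. Of 8 macrophage markers 6 lie at 100 TPM or more in both replicates, and 2 lie at moderate levels, as Il4ra does. Dendritic cell and eosinophil markers lie mostly below the threshold.

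The cells carried the markers of their label and few of other cells that could supply these messages. All 8 macrophage markers were detected, from Itgam at 24.4 and 37.2 TPM and Mertk at 27.5 and 36.8 TPM in replicates 1 and 2 up to Lyz2 at 2910 and 3110 TPM. None of 6 dendritic cell markers was detected; the highest, Ccr7, had 0.47 TPM in replicate 1 and 1.61 TPM in replicate 2, their sum was 0.66 and 1.97 TPM, and Cd209a had no count. Dendritic cells are a known source of Clec10a and Mgl2. This sum, most of it Ccr7, was higher in replicate 2, though Xcr1 was not, at 0.08 and 0.07 TPM. Both Clec10a and Mgl2 were also higher in replicate 2 by TPM in the alignment-based table. In the read-based table Clec10a was lower in replicate 2 by TPM, at 1.3 and 1.19 TPM in replicates 1 and 2. By read-based counts scaled by library size it was higher in replicate 2, with a log2 ratio of replicate 1 over replicate 2 of -0.30. The direction of Clec10a in that table thus depended on the unit. The part of dendritic cells in these levels was not tested. None of 5 eosinophil markers was detected: the highest, Ccr3, had 0.82 and 0.57 TPM, and Epx, Prg2 and Il5ra had no count. Of 4 mast cell and basophil markers none was detected, with sums of 0.01 and 0.17 TPM. Of 5 T cell and innate lymphoid cell markers Il7r was detected, at 6.41 TPM in replicate 1 and 2.91 TPM in replicate 2, and all 5 summed to 6.43 and 2.97 TPM. The 3 fat cell markers Adipoq, Lep and Cidec, cells in which Pparg is known to be high, had no count.

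The 2 libraries were compared gene by gene to see how far apart the replicates were for these markers, with rounded expected counts, library sizes scaled by TMM and a two-sided exact binomial test, adjusted by Benjamini-Hochberg over 13298 genes with a mean count of at least 10. This test compares these libraries, not conditions, and holds counting error only. With a fold of at least 2 and an adjusted p under 0.05, 3 of the 6 markers tested passed, all lower in replicate 1, against 5.58% of all genes tested (742 genes) and 3.23% for that direction. Retnla, with no count, was not tested. Mgl2, with 5 counts in replicate 1 and 19 in replicate 2, reached the minimum mean count only through replicate 2. Its call rests on few counts and on a filter met only through the library where it was higher. Il4ra had a log2 ratio of replicate 1 over replicate 2 of -1.02 (95% counting interval -1.06 to -0.99), Chil3 of -1.03 (-1.32 to -0.74; adjusted p = 3.1e-12, exact binomial test) and Mgl2 of -2.33 (-4.11 to -0.86; adjusted p = 0.0014, exact binomial test). Mrc1 with 0.32 (0.28 to 0.36) and Pparg with 0.46 (0.33 to 0.59) were higher in replicate 1 by less than 2-fold, and Clec10a with -0.33 (-0.56 to -0.10) was lower by less than 2-fold. The markers thus had ratios of both signs.

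Il4ra and Chil3 passed by little, at folds of 2.03 and 2.04. They did not pass with unscaled library totals (5.52% of all genes called) or in the read-based table (7.36%). Each of these left Mgl2 as the 1 marker past the threshold, with few counts that met the filter only through replicate 2. When a biological coefficient of variation of 0.2 was assumed, edgeR's exact test called none of the 6 markers, against 1.03% of all genes. Adjusted p values by edgeR's exact test were 0.42 for Il4ra, 0.54 for Chil3 and 0.26 for Mgl2, and 3 markers had an unadjusted p under 0.05. The assumed value is close to the 0.198 estimated between these libraries. That estimate rests on the same differences that were tested, so it gives the assumed value no separate ground.

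**Figure D5:**
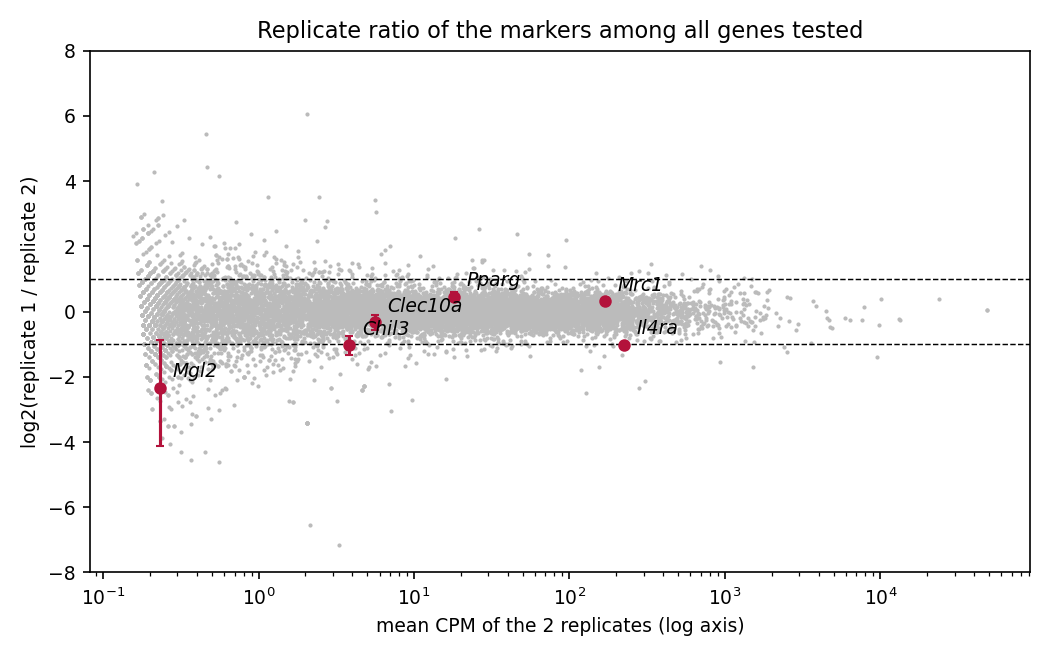
Log2 ratio of replicate 1 over replicate 2 against mean CPM (log axis) for the 13298 genes tested (grey) and 6 markers (red, with 95% counting intervals, which are narrower than the symbol for Il4ra and Mrc1). Dashed lines mark 2-fold; Il4ra, Chil3 and Mgl2 lie at or below the lower line.

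Among the pathway lists, all genes that passed the same 2-fold rule were higher in replicate 1. Over all genes tested 5.58% passed, with 2.35% higher and 3.23% lower in replicate 1. The genes named in this paragraph were chosen after their values were seen. Of 10 receptor and signalling genes tested 1 passed: Irs2, an adaptor for IL-4 and insulin signals, at 3.85 TPM in replicate 1 and 1.23 TPM in replicate 2, a direction opposite to that of Il4ra. Of 15 other IL-4 response genes tested 4 passed, the transcription factor genes Egr2, Irf4 and Klf4 and the signalling inhibitor gene Cish, all higher in replicate 1, against 2.35% of all genes for that direction. Egr2 had 29.3 TPM in replicate 1 and 10.2 TPM in replicate 2. Of 10 PPARγ target genes tested 1 passed, Fabp4, a fatty acid carrier, at 61.4 and 24.0 TPM in replicates 1 and 2, and none of 9 partners and coregulators passed. Pparg was also higher in replicate 1, by less than 2-fold. Of the cell type markers tested, 3 of 3 of neutrophils (S100a8, S100a9 and Ngp), 2 of 5 of dendritic cells (Flt3 and Ccr7) and 1 of 8 of macrophages (Adgre1) passed lower in replicate 1, the direction of Il4ra, Chil3 and Mgl2, and Il7r passed higher in replicate 1. Flt3, with 3 counts in replicate 1 and 26 in replicate 2, reached the minimum mean count only through replicate 2. Adgre1, the gene of the F4/80 antigen, had 358 TPM in replicate 1 and 706 TPM in replicate 2, a log2 ratio of -1.10. The part of these shifts in the markers was not tested. With 2 libraries, how these genes vary with the markers cannot be tested.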

How the data were processed

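Replicates 1 and 2 are named as in the labels and form 1 group. Each library had gene and transcript tables from reads aligned to transcripts (alignment-based) and a transcript table from unaligned reads (read-based). Assembly mm10 and annotation GENCODE M21 are named in the text that came with them; aligner, quantifiers and strandedness were not given in the sources used here. Expected counts were deposited without depth scaling, per the file headers. Deposited TPM values are relative to every feature, so abundant short RNAs, transfer RNAs and spike-ins lower the TPM of all other genes. Deposited FPKM values, per the file headers, served as an alternative scale. The percent values that the authors deposited give a transcript's share of its gene's TPM; read-based shares were computed here.

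Beside 55536 annotated genes the gene table held 26248 transfer RNAs and 97 spike-ins, which were left out. Over annotated genes, rounded expected counts came to 64187219 in replicate 1 and 49429864 in replicate 2, so counting error is smaller in replicate 1. Read-based gene values are sums over transcripts. Since edgeR's quasi-likelihood test needs replicates within the groups compared, the replicates were compared by an exact binomial test (R 4.3.3, library sizes by TMM in edgeR 4.0.16). Size factors of DESeq2 1.42.0 served as an alternative. A check on simulated data required good recovery and few false calls under counting error only. These libraries had an estimated coefficient of variation of 0.198, so that requirement does not cover them. The p-values of the exact binomial test hold counting error only and measure neither technical nor biological spread. Nothing says that the replicates came from separate animals. Intervals and floors of 3 counts cover counting error only. Identities and shared words of 31 bases came from GENCODE M21 transcripts with Biopython 1.88.

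All 7 markers are described. Other lists are represented by their top 4 and bottom 2 genes in mean TPM at most, and lists of other cell types by their detected markers or the highest; not every gene this allows is reported here. The markers and lists were chosen with earlier results of these data known.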

Additional observations from a re-analysis of the deposited data

How the results depend on the processing

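The number of detected markers, 5, fell to 2 (Il4ra and Mrc1) with a minimum of 5 TPM and was 4, without Chil3, in the read-based table; it was 5 with a minimum of 0.5 TPM, after rescaling to protein-coding genes, with at least 10 counts in place of a TPM, and without either replicate (5 to 5). The number of markers at least 2-fold apart between replicates, 3, was 0 under edgeR's exact test with an assumed coefficient of variation of 0.2 (3 at an unadjusted p under 0.05), 1 with library totals without TMM and 1 in the read-based table, and it was 3 with DESeq2 size factors and with no filter on low counts. Clec10a minus Mgl2 was 1.66 with a pseudocount of 1 and 3.16 in the read-based table, and 3.52 to 3.81 when a replicate was left out. The median of the markers minus that of detected genes was -0.40 over markers at 1 TPM or more, -1.92 in the read-based table, -1.11 after rescaling to protein-coding genes, and -1.73 to -1.35 when a replicate was left out. With a minimum of 5 TPM, 2 of 2 detected markers kept the same leading transcript, and by counts 4 of 5 did, without Il4ra. The TPM of 6 of the 7 markers moved by more than 1 SD in the read-based table. Values under CPM, FPKM and rescaled TPM differ as well, but those are other units. A change of unit moves any level other than 0, so it cannot show how stable the levels are. Retnla was at 0 under each. Leaving out a replicate leaves the comparison between replicates without a value. No paired analysis was possible because there is only 1 group. Depth limits Mgl2, with 5 and 19 counts in replicates 1 and 2, and Retnla, with none.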

Other observations

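The listed relatives of the markers were also near zero. Of 6 further genes of the Chil3 family none was detected: Chil1 had 0.09 TPM in replicate 1 and 0.11 TPM in replicate 2, and the other 5 had at most 1 count in either library. Of 3 further resistin genes none was detected, Retn with 1 count in replicate 1 and none in replicate 2 being the highest. Of 4 relatives of Clec10a and Mgl2 none was detected, the highest being Asgr2, a subunit of the hepatic asialoglycoprotein receptor, with 0.05 and 0.02 TPM. Among relatives of Mrc1, Ly75, an endocytic receptor, had 0.28 and 0.32 TPM, Pla2r1, a phospholipase receptor, had 0.17 and 0.19 TPM, and Mrc2 had 1 count in each library. Among the genes listed, the only ones detected in these 4 families in the alignment-based table were therefore Chil3, Clec10a and Mrc1. The resistin list with Retnla had no detected gene. Relatives outside these lists were not examined.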
